A study of Mus musculus with 26 samples.

Results

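The step from meiosis to the haploid phase of mouse spermatogenesis was read by setting 2 libraries of round spermatids against 2 libraries of pachytene spermatocytes, 4 of the 26 samples of the series. The libraries were chosen by their labels, and every gene was used. Both groups carry the label wild type, testis tissue and an age of 21 days. Round spermatids and spermatocytes labelled as a knockout of Nkapl, a gene named for its likeness to the transcription regulator Nkap, with 2 libraries each, served to estimate the spread between libraries and to check the labels. Whole testes, wild type or mutant for Nkapl or Sox30, make up the rest of the series and were not used here. The labels name the cell types but give neither the method nor the purity of their isolation, and for these libraries they give neither the mouse strain nor the nature of the knockout allele. They do not say whether the 2 libraries of a group came from separate mice. P-values therefore measure the spread between libraries, pooled over the 8 libraries with a cell type label, which may be technical. This spread was unequal. Set against counting noise, its chi-square per degree of freedom was 4.96 in spermatocytes and 2.50 in round spermatids labelled wild type. In those labelled knockout it was 1.41 in spermatocytes and 1.79 in round spermatids.

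Pachytene spermatocytes are in meiotic prophase, when homologous chromosomes are held together by the synaptonemal complex and the X and Y chromosomes are largely silenced. After both meiotic divisions, round spermatids build the acrosome, a secretory vesicle used at fertilization, and begin the sperm tail. They also store transcripts whose proteins are needed later, when protamines replace histones and compact the nucleus.

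The 2 round spermatid libraries held 19361502 and 19391573 counts in genes, and the 2 spermatocyte libraries labelled wild type held 19209495 and 19569272. Values are given as CPM, counts scaled by library total and by edgeR's trimmed mean of M-values. Differences are log2 of round spermatids over spermatocytes labelled wild type, with their standard error (SE). A gene is said to have risen or fallen only where edgeR's quasi-likelihood test gave a Benjamini-Hochberg adjusted p under 0.05 over all 15805 genes tested, and a 2-fold call also needed a log2 difference of at least 1. Of these genes, 13798 (87.3%) did not overlap between the groups.

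The targeted gene was read first as a check of the labels. Nkapl, at 21467047 to 21468501 on chromosome 13 (GRCm38), measured 24.6 and 23.6 CPM in round spermatids labelled knockout, against 88.3 and 90.2 CPM in round spermatids labelled wild type. In spermatocytes it measured 127 and 125 CPM in the libraries labelled knockout, against 90.1 and 86.0 CPM in those labelled wild type. Nkapl thus ran with the genotype labels in spermatids and against them in spermatocytes, and each direction below rests on the spermatocyte libraries as labelled. This check rests on 1 gene, and the cause was not tested. Between round spermatids and spermatocytes labelled wild type, Nkapl differed by 0.02 (SE 0.06, adjusted p = 0.75). That difference changed sign to -0.31 when libraries were scaled by total counts alone and to -0.49 against the spermatocytes labelled knockout.

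Most genes differed between the cell types. Of the 15805 genes tested, 6494 (41.1%) rose and 5751 (36.4%) fell in round spermatids, 77.5% in all. At the 2-fold level, 3167 (20%) rose and 2866 (18.1%) fell. Rises made up 53.0% of all calls with the scaling used and 36.5% when only library totals were used, which moved the median of all genes by -0.33. Against the spermatocytes labelled knockout, 2826 of the 2-fold rises (89.2%) and 2621 of the 2-fold falls (91.5%) were called again, and none was called in the opposite direction. Both comparisons used the same 2 round spermatid libraries and the same spread estimate, so part of this overlap was built in. The list of rises against the spermatocytes labelled knockout was longer, and the shared genes were 72.9% of it. The shared falls were 67.4% of the falls there.

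Rises and falls had different shapes. The 2-fold rises were packed closely, with a median of 1.40, a first decile of 1.11 and a last decile of 1.71. The 2-fold falls had a median of -1.59, and their outer deciles lay at -2.65 and -1.10. A histogram in steps of 0.1 held 676 genes in its central peak just above 0, dropped to 295 genes between 1.0 and 1.1, and reached 589 genes in a separate peak between 1.4 and 1.5. Among genes with a mean log2 CPM of at least 3, only 4 rose by 4-fold or more, whereas 188 fell by that much. Over all genes tested, 119 rose and 798 fell by 4-fold or more. The count of 119 became 227 without the first spermatocyte library and 205 without the second, 58 when the 4 libraries labelled wild type were fitted alone, 182 with no filter on low counts, 49 with total counts alone and 1671 against the spermatocytes labelled knockout, where the falls numbered 1336.

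**Figure D1:**
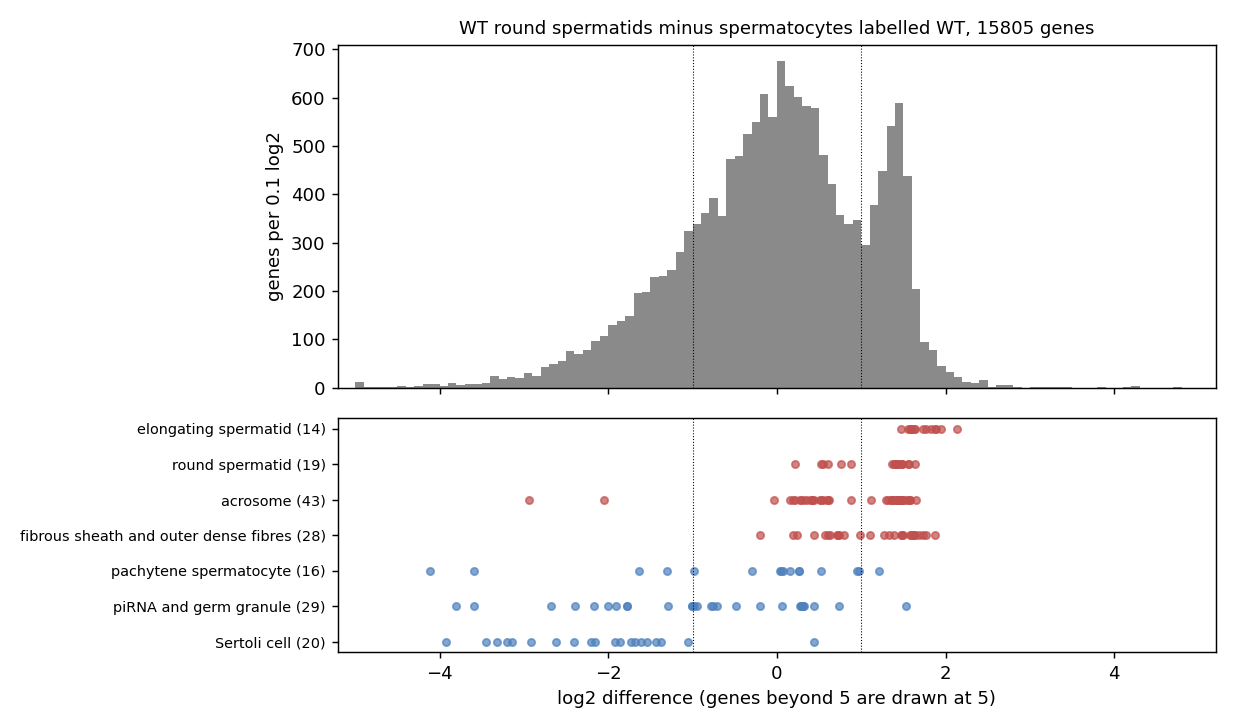
The upper panel counts genes by log2 difference of round spermatids minus spermatocytes labelled WT (horizontal axis, bins of 0.1), with dotted lines at -1 and 1. The lower panel marks each tested gene of 7 lists by 1 point, and shows the elongating spermatid markers between 1.47 and 2.14, within or beyond the separate peak, while the piRNA and Sertoli genes spread down to -3.81 and -3.92.

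Markers were read before any gene group, because transcripts of spermatid marker genes were plentiful in the spermatocyte libraries. The 14 markers of elongating spermatids summed to 12236 and 11758 CPM in round spermatids, against 3538 and 3709 CPM in spermatocytes labelled wild type. The 14 genes stood in those spermatocytes at 22.7% (Car2) to 36.2% (Hils1) of their round spermatid level, with a median of 31.2%. In the spermatocytes labelled knockout, the median for the same genes was 14.4% of the level in round spermatids labelled wild type. As a share of the level in round spermatids labelled knockout, that median was 36.9%. The 14 markers summed to only 4372 and 4373 CPM in round spermatids labelled knockout. Markers of round spermatids summed to 6594 and 6525 CPM in round spermatids, against 3328 and 3446 CPM in spermatocytes labelled wild type, and all 19 rose, by 0.21 to 1.64. A smaller number of cells of a type and less RNA per cell cannot be told apart in such bulk libraries.

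Meiotic markers did not form a mirror image of this. The 16 pachytene markers summed to 9939 and 9495 CPM in round spermatids, against 9274 and 9492 CPM in spermatocytes labelled wild type, so the groups overlapped. Ldhc alone supplied 5103 and 4655 CPM of the sums in round spermatids, against 4222 and 4539 CPM in those spermatocytes. The overlap of the sums thus rests in large part on 1 gene. Of these 16 genes, 7 (43.8%) rose and 6 (37.5%) fell, near the 41.1% and 36.4% over all genes. Their median of 0.06 changed sign to -0.28 with total counts alone, to -0.06 with upper-quartile scaling and to -0.04 against the spermatocytes labelled knockout. The 12 markers of early prophase summed to 346 and 368 CPM in round spermatids, against 871 and 806 CPM in spermatocytes labelled wild type. Of them, 1 (8.33%) rose and 8 (66.7%) fell.

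Somatic markers moved as well. The 20 Sertoli cell markers, genes of the nurse cells of the tubule, summed to 56.2 and 53.9 CPM in round spermatids, against 310 and 324 CPM in spermatocytes labelled wild type, and 19 of them (95%) fell. Clu alone supplied 17.9 and 16.8 CPM of the sums in round spermatids, against 168 and 179 CPM in those spermatocytes. Sox9, which specifies Sertoli cells, measured 0.467 and 0.289 CPM in round spermatids, against 3.78 and 3.28 CPM in spermatocytes labelled wild type. The 9 tested Leydig cell markers all fell, and the list summed to 32.8 and 33.5 CPM, against 80.2 and 77.7 CPM in spermatocytes labelled wild type. Fdx1 alone supplied 22.9 and 24.3 CPM of the sums in round spermatids, against 33.9 and 31.2 CPM in those spermatocytes. Macrophage markers ran the other way at low levels, with 9 of 11 (81.8%) higher in round spermatids and sums of 26.0 and 25.8 CPM, against 12.4 and 11.8 CPM in those spermatocytes. Peritubular myoid markers summed to 309 and 303 CPM in round spermatids, against 146 and 135 CPM in those spermatocytes, of which the smooth muscle actin gene Actg2 supplied 269 and 261 CPM, against 93.6 and 93.4 CPM in spermatocytes labelled wild type. Of the 9 myoid markers, 5 (55.6%) rose and 3 (33.3%) fell, where 41.1% and 36.4% of all genes did. Endothelial markers summed to 18.9 and 20.1 CPM in round spermatids, against 9.61 and 7.78 CPM in spermatocytes labelled wild type, with 3 of 6 (50%) that rose. Of the erythroid list, the 6 globin genes had no count in any of the 4 libraries, and Alas2, an enzyme of heme synthesis, fell by 1.52 on the log2 scale but stood at 0.16 against the spermatocytes labelled knockout. The part of spermatid marker and somatic transcripts in the results that follow was not tested.

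**Figure D2:**
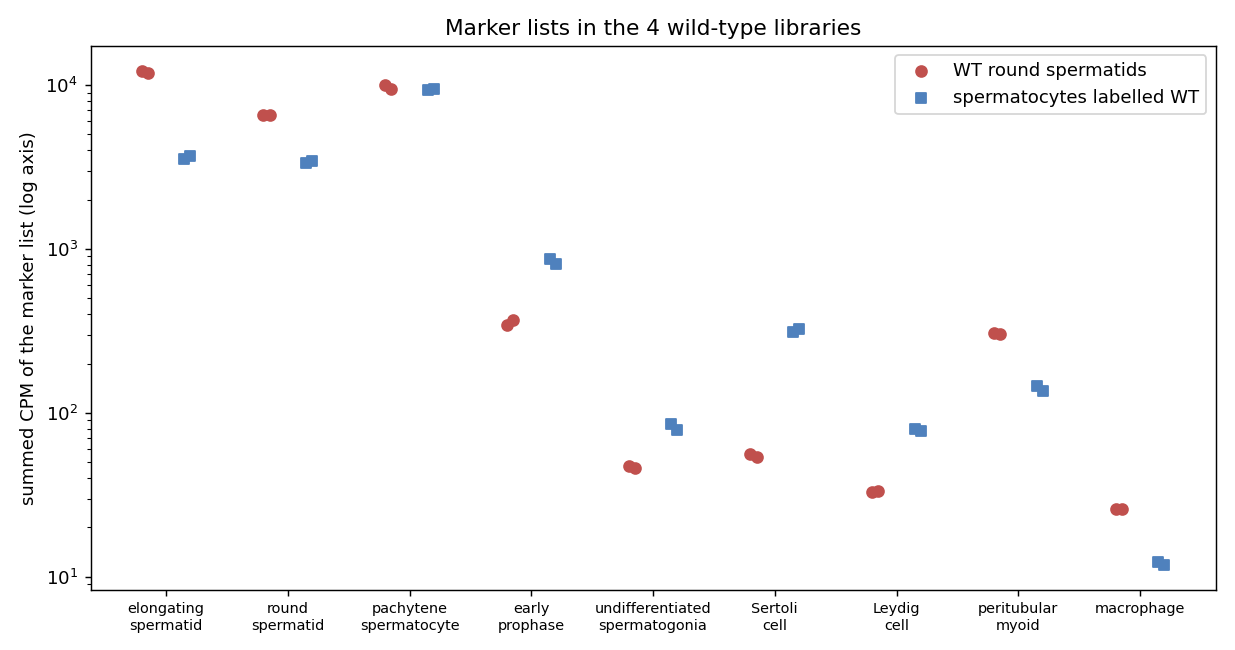
Summed CPM of 9 marker lists (log axis) in each of the 4 libraries, with round spermatids as circles on the left and spermatocytes labelled WT as squares on the right. Elongating spermatid markers stand at 12236 and 11758 against 3538 and 3709 CPM in spermatocytes labelled wild type. The sums of the pachytene markers, of which Ldhc is the largest member, overlap. Sertoli markers, of which Clu is the largest member, stand at 56.2 and 53.9 against 310 and 324 CPM in those spermatocytes.

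Genes of nuclear compaction were among the largest rises. Prm2, which encodes a protamine, measured 1571 and 1549 CPM in round spermatids, against 381 and 426 CPM in spermatocytes labelled wild type, a difference of 1.95 (SE 0.06, adjusted p = 1.6e-22). Tnp2, a transition protein gene that lies beside Prm2 on chromosome 16, measured 1564 and 1510 CPM, against 408 and 429 CPM in spermatocytes labelled wild type. For Prm1, the other main protamine gene, the values were 1114 and 1054 CPM in round spermatids, against 284 and 302 CPM in those spermatocytes. All 5 protamine and transition protein genes rose by 2-fold or more, with Prm3 lowest at 1.60, where 20% of all genes did. Their median of 1.88 became 4.43 against the spermatocytes labelled knockout. The 5 genes were also low in round spermatids labelled knockout, with sums of 602 and 556 CPM, against 5424 and 5205 CPM in those labelled wild type. In spermatocytes they summed to 232 and 233 CPM in the libraries labelled knockout, against 1392 and 1483 CPM in those labelled wild type.

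The other genes among the 10 largest rises at a mean log2 CPM of 3 or more, with provisional Gm and Rik symbols passed over, were less abundant. Car2, a carbonic anhydrase, averaged 42.5 ± 2.3 CPM in round spermatids and 9.65 ± 0.52 CPM in spermatocytes labelled wild type (SD, n = 2 each), and its difference of 2.14 (SE 0.09) was the largest under the abundance rule. The cell surface proteoglycan gene Sdc3 measured 19.7 and 18.0 CPM, against 4.52 and 4.51 CPM in spermatocytes labelled wild type. Ubqlnl, a ubiquilin relative, measured 114 CPM in both round spermatid libraries, against 31.5 and 30.7 CPM in those spermatocytes. Spata32 (1.93), the membrane receptor gene Paqr5 (1.90), the serine protease gene Prss51 (1.88) and the hydrolase gene Abhd16b (1.88) completed the group.

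The 10 largest falls, with provisional Gm and Rik symbols again passed over, were deeper. Piwil1, the Argonaute protein that binds pachytene piRNAs, measured 59.9 and 61.0 CPM in round spermatids, against 764 and 689 CPM in spermatocytes labelled wild type, a difference of -3.59 (SE 0.06, adjusted p = 3.5e-28). Tdrd5, a Tudor domain protein of the germ granule, measured 12.6 and 14.4 CPM, against 193 and 185 CPM in spermatocytes labelled wild type. Pou5f2, a POU domain gene of spermatocytes, measured 3.85 and 4.57 CPM, against 72.0 and 74.4 CPM in those spermatocytes, a difference of -4.12 (SE 0.09). Chst1, a sulfotransferase, measured 9.22 and 7.57 CPM in round spermatids, against 100 and 104 CPM in spermatocytes labelled wild type. Sap30 of the Sin3 histone deacetylase complex (-3.70), the polycystin-like channel gene Pkd2l1 (-3.52), the fatty acid desaturase gene Scd2 (-3.47), Tmem106c (-3.47) and Pnmal1 (-3.34) were also among them. Clu (-3.32), the smallest of these falls, is on the list of Sertoli cell markers, with 17.9 and 16.8 CPM, against 168 and 179 CPM in spermatocytes labelled wild type.

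Promoters of genes that rose and fell differed in their letters. They are shown for 4 of these 20 genes, picked after their values were seen, as the 250 bases upstream of the RefSeq start (GRCm38.p6), read 5′ to 3′ on the gene's strand, with each CpG dinucleotide in capitals. The Prm2 stretch is chr16:10792106-10792355 and the Tnp2 stretch chr16:10788656-10788905, both on the minus strand, for genes that rose. The Piwil1 stretch is chr5:128735996-128736245 on the plus strand and the Tdrd5 stretch chr1:156303349-156303598 on the minus strand, for genes that fell.
Prm2: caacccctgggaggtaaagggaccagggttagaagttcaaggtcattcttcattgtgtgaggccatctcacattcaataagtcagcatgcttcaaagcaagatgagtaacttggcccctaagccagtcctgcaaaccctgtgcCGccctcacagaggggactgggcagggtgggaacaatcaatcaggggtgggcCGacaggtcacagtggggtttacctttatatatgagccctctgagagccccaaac
Tnp2: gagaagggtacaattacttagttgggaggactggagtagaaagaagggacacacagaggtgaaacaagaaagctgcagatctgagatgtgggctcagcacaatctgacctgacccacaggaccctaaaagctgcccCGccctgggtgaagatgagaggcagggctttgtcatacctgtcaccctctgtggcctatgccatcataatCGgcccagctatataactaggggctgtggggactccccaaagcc
Piwil1: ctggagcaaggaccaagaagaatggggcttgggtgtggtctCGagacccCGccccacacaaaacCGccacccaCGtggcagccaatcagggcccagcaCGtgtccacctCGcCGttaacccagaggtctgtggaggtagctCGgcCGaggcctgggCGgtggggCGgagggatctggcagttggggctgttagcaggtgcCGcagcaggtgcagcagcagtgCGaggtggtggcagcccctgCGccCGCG
Tdrd5: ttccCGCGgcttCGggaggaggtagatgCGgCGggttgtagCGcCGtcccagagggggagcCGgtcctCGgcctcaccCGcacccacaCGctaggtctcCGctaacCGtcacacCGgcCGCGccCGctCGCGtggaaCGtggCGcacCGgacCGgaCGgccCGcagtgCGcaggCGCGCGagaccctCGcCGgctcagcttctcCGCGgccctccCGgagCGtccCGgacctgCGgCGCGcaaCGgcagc
The Prm2 and Tnp2 stretches hold 2 CpG each, the Piwil1 stretch 16 and the Tdrd5 stretch 40.

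The same was counted over all promoters in windows of 300 bases, 250 upstream and 50 downstream of the start, which were available for 12595 of the genes tested. The median window held 6 CpG for the 2498 genes that rose by 2-fold, 20 for the 2251 genes that fell by 2-fold and 19 for all genes tested. Windows with fewer than 10 CpG made up 60.2% of the first set and 19.3% of the second, against 26.9% of all. Among genes with a mean log2 CPM of at least 3, the medians were 8 for rises and 22 for falls, and among protein-coding genes alone 8 and 20. With no fold threshold they were 15 and 21. Single genes departed from this, since Sdc3 rose with 44 CpG in its window and Chst1 fell with 1. The same windows were read for 7 short motifs on both strands. The GC box GGGCGG, which itself contains a CpG, was in 35.4% of windows of 2-fold rises, 63.2% of those of falls and 57.6% of all. The motif GTTGCC, part of the RFX site, was in 16.7%, 11.1% and 13.8% of the same sets, and the TATA box TATAAA in 11.3%, 7.69% and 7.99%. The core TGACG of the cAMP response element, the site of Crem and its relatives, ran the other way, in 21.8% of windows of rises, 26.5% of falls and 29.1% of all, and it too contains a CpG. Its full palindrome TGACGTCA was in 2.56%, 2.27% and 3.04%. The MYB site, TAACNG or CAACNG, was in 50.04%, 44.8% and 47.6%, and the CCAAT box in 37.8%, 39.5% and 38.7%. Among the 85 promoters of genes that rose by 4-fold or more, 8.24% held GTTGCC, below the share of all, and 10.6% held TGACG. Over all RefSeq promoters of this length the shares were 35.9% for the GC box, 12.7% for GTTGCC, 14.2% for TATAAA, 21.02% for TGACG, 1.88% for the palindrome, 49.7% for the MYB site and 37.9% for the CCAAT box. A match describes letters and is not a bound site.

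**Figure D3:**
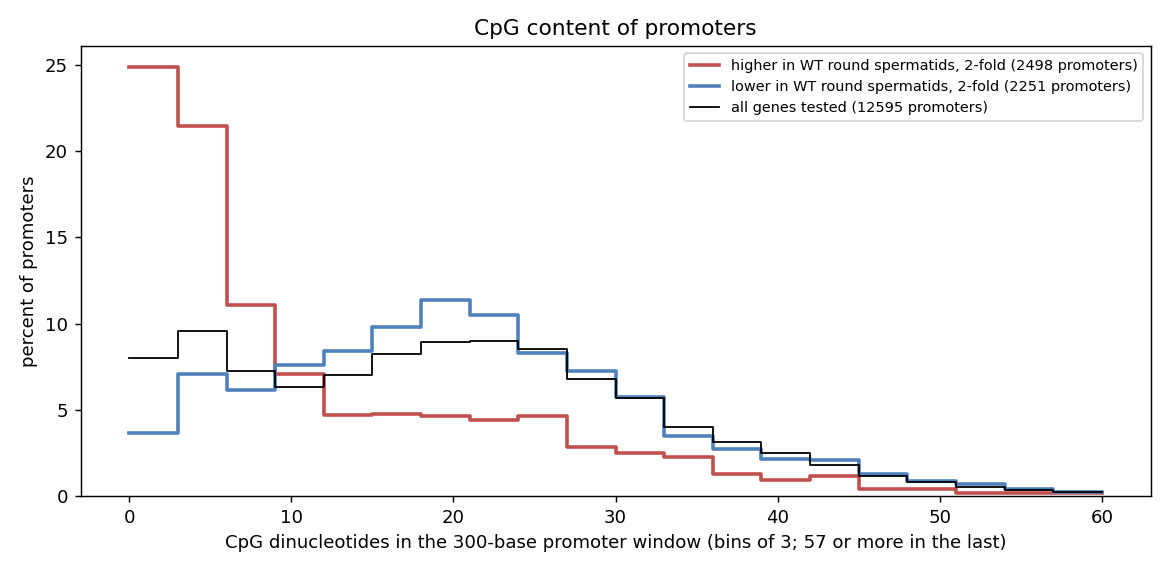
Percent of promoters (vertical axis) by number of CpG dinucleotides in the 300-base window (horizontal axis, bins of 3). Genes at least 2-fold higher in round spermatids (red, 2498 promoters) are concentrated at low counts around their median of 6, whereas genes at least 2-fold lower (blue, 2251) follow all genes tested (black), with medians of 20 and 19.

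Acrosome genes rose together. Of 43 tested, 40 (93.0%) rose and 2 (4.65%) fell, where 41.1% and 36.4% of all genes did. The rises of 2-fold or more numbered 22 (51.2%), where 20% of all genes rose by that much. The median was 1.11, where the median of all genes was 0.05. Acrv1, a protein of the acrosomal vesicle, measured 350 and 353 CPM in round spermatids, against 127 and 125 CPM in spermatocytes labelled wild type, a difference of 1.48 (SE 0.05, adjusted p = 3.2e-21). Zp3r, the acrosomal matrix protein also called sp56, measured 385 and 362 CPM, against 128 and 121 CPM in those spermatocytes, and the actin-like gene Actl7a 577 and 571 CPM, against 209 and 214 CPM in spermatocytes labelled wild type. The proacrosin gene Acr and its binding protein gene Acrbp, by contrast, were abundant in both cell types and rose by less, with differences of 0.61 and 0.54. The exceptions were Gopc, a Golgi protein needed for acrosome assembly, with 11.0 and 12.0 CPM in round spermatids, against 49.6 and 45.1 CPM in those spermatocytes, and Tex101, a surface protein that is also on the early prophase list, with 20.1 and 17.6 CPM, against 139 and 150 CPM in spermatocytes labelled wild type. Of 8 genes of sperm-egg fusion, 7 rose by 2-fold or more, among them Izumo1, the sperm ligand of the egg receptor, with 178 and 180 CPM, against 65.2 and 69.9 CPM in those spermatocytes.

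Structural genes of the sperm tail rose together. Genes of the fibrous sheath and outer dense fibres, which surround the core of the tail, rose in 27 of 28 cases (96.4%), where 41.1% of all genes rose. By 2-fold or more, 16 (57.1%) rose, where 20% of all genes did. The median of the list was 1.30. Akap3 and Akap4, the main anchoring proteins of the sheath, measured 1650 and 1611 CPM and 1286 and 1363 CPM in round spermatids, against 583 and 577 CPM and 447 and 413 CPM in spermatocytes labelled wild type. Odf1 of the dense fibres measured 904 and 865 CPM, against 288 and 305 CPM in those spermatocytes. Odf2, with the largest count after Ldhc in round spermatids, measured 4596 and 4501 CPM, against 2589 and 2668 CPM in spermatocytes labelled wild type, a smaller difference of 0.79 (SE 0.04). The exception was Odf2l, at -0.20.

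Genes of the axoneme, the microtubule core, had a lower median. Of 57, 36 (63.2%) rose and 17 (29.8%) fell, where 41.1% and 36.4% of all genes did. Only 5 (8.77%) rose by 2-fold or more, where 20% of all genes did. The median of the list, 0.31, changed sign to -0.02 with total counts alone. Spag6, a central apparatus protein, measured 369 and 368 CPM in round spermatids, against 133 and 144 CPM in spermatocytes labelled wild type. The dynein heavy chain gene Dnah2 fell, with 221 and 217 CPM, against 428 and 356 CPM in those spermatocytes, and so did the dynein assembly factor gene Zmynd10, with 272 and 288 CPM, against 456 and 488 CPM in those spermatocytes. In the list of intraflagellar transport, nuclear shape and manchette genes, 29 of 47 (61.7%) rose and 11 (23.4%) fell. The median of this list, 0.20, changed sign to -0.13 with total counts alone. Both directions were large there. Kif17, a kinesin, measured 752 and 712 CPM in round spermatids, against 252 and 256 CPM in those spermatocytes, while Ift80, a subunit of the transport particle, measured 60.4 and 63.9 CPM, against 191 and 165 CPM in spermatocytes labelled wild type. The nuclear envelope genes Spag4 (1.46) and Sun5 (1.42) rose, and Ift20 (-1.30) fell.

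Ion channel and kinase genes rose in most cases. Of 26 sperm ion channel and signalling genes, 17 (65.4%) rose and 6 (23.1%) fell, where 41.1% and 36.4% of all genes did. The median of the list, 0.33, changed sign to -0.003 with total counts alone. Catsper4, a pore subunit of the sperm calcium channel, measured 327 and 310 CPM in round spermatids, against 114 CPM in both spermatocyte libraries labelled wild type. Atp1a4, the sperm sodium pump, measured 759 and 740 CPM, against 251 and 241 CPM in spermatocytes labelled wild type, and Plcz1, the sperm phospholipase that activates the egg, 369 and 378 CPM, against 137 and 127 CPM in those spermatocytes. Of 25 testis kinase and phosphatase genes, 17 (68%) rose and 4 (16%) fell, with a median of 0.43. The testis-specific kinase genes Tssk1 and Tssk2 measured 486 and 474 CPM and 540 and 508 CPM in round spermatids, against 176 and 191 CPM and 173 and 182 CPM in those spermatocytes. Stk31, a kinase-like Tudor protein, fell to 18.8 CPM in both round spermatid libraries, against 103 and 94.2 CPM in spermatocytes labelled wild type.

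Energy genes moved in both directions. Of 39, 18 (46.2%) rose and 17 (43.6%) fell, near the 41.1% and 36.4% over all genes, and the median of 0.10 changed sign under total counts and upper-quartile scaling. The rises included testis forms of glycolytic enzymes. Gapdhs, the sperm form of glyceraldehyde-3-phosphate dehydrogenase, measured 1058 and 1048 CPM in round spermatids, against 328 and 372 CPM in spermatocytes labelled wild type, and the aldolase retrogene Aldoart2 626 and 574 CPM, against 203 and 210 CPM in those spermatocytes. The general form Gapdh fell by 1.23 on the log2 scale. Hk1, a hexokinase, measured 1919 and 1862 CPM, against 760 and 785 CPM in those spermatocytes, while Hk2 fell by 1.65. Slc2a3, the glucose transporter GLUT3, was among the 5 genes with the largest CPM in spermatocytes labelled wild type and fell to 729 and 727 CPM in round spermatids, against 2678 and 2603 CPM in those spermatocytes, a difference of -1.86 (SE 0.04, adjusted p = 3.4e-25). Ldhc, the germ cell lactate dehydrogenase, led both cell types, with 5103 and 4655 CPM, against 4222 and 4539 CPM in those spermatocytes. Its difference of 0.16 was within reach of the scaling, at -0.18 with total counts alone. Gapdh and Aldoart2 have near-identical copies in the genome, and how reads shared with such copies were counted is not given in the sources used here.

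**Figure D4:**
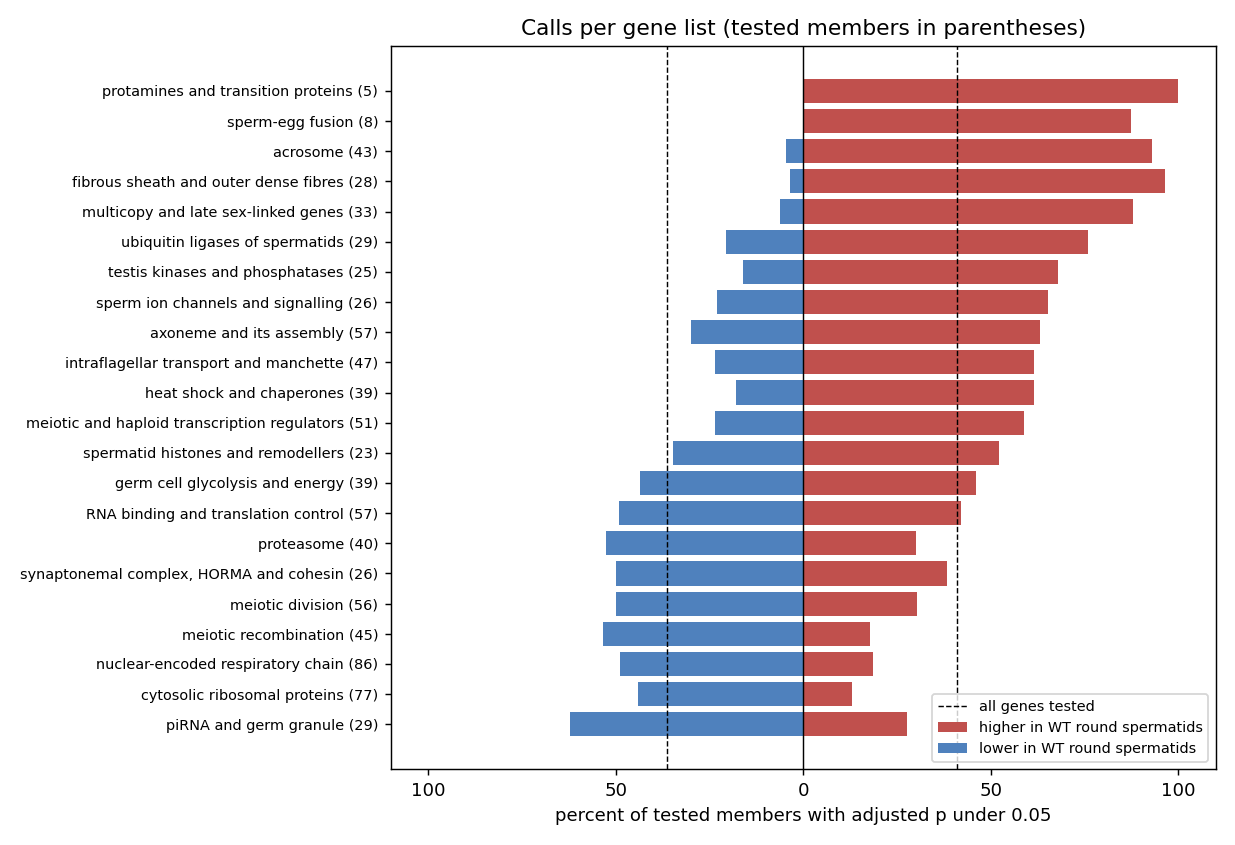
Percent of the tested members of 22 lists that were higher (red, to the right) or lower (blue, to the left) in round spermatids than in spermatocytes labelled WT, with the number tested in parentheses. Dashed lines mark the share over all genes tested, 41.1% higher and 36.4% lower, which the protamine, fusion, acrosome and fibrous sheath lists pass on the right and the piRNA list passes on the left with 62.1% of 29 genes.

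Of 23 histone and remodelling genes of spermatids, 12 (52.2%) rose and 8 (34.8%) fell, the falls near the 36.4% of all genes, with a median of 0.39 that changed sign to -0.05 against the spermatocytes labelled knockout. Chd5, a remodeller active during histone removal, measured 884 and 840 CPM in round spermatids, against 301 and 287 CPM in spermatocytes labelled wild type. The linker histone gene H1fnt measured 402 and 372 CPM, against 117 and 130 CPM in those spermatocytes. The crotonyl-lysine regulator Cdyl (1.53) and the spermatid linker histone Hils1 (1.47) rose by similar amounts. The variant histone genes H2afy (-0.98) and H3f3b (-0.60) fell, H2afy being macroH2A1, which gathers on the silenced sex chromosomes.

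Transcription regulators rose more often than they fell. Of 51, 30 (58.8%) rose and 12 (23.5%) fell, where 41.1% and 36.4% of all genes did. By 2-fold or more, 16 rose and 5 fell, and the median of the list was 0.40. Crem, the activator of many haploid genes, measured 374 and 368 CPM in round spermatids, against 220 and 218 CPM in spermatocytes labelled wild type. Its partner gene Fhl5, also called Act, measured 213 and 218 CPM, against 76.7 and 82.3 CPM in those spermatocytes. Spz1, a helix-loop-helix factor, measured 999 and 950 CPM, against 328 and 317 CPM in those spermatocytes, and Rfx1, a factor of the RFX family, 294 and 296 CPM, against 117 and 113 CPM in those spermatocytes. The falls included Nr2c2, the orphan receptor TR4, with 53.6 and 54.8 CPM in round spermatids, against 144 and 120 CPM in those spermatocytes.

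Of 26 synaptonemal complex, HORMA and cohesin genes, 10 (38.5%) rose and 13 (50%) fell, where 41.1% and 36.4% of all genes did. The falls of 2-fold or more numbered 7, with a median of -0.16. Sycp3, a lateral element protein, measured 40.8 and 40.6 CPM in round spermatids, against 126 and 127 CPM in spermatocytes labelled wild type. Hormad1, which marks unsynapsed axes, measured 20.5 and 20.9 CPM, against 76.1 and 78.8 CPM in those spermatocytes. The cohesin subunit gene Rec8 went the other way, with 211 and 204 CPM, against 73.9 and 81.5 CPM in those spermatocytes, and so did Stag2 on the X chromosome, with 58.8 and 59.3 CPM, against 24.3 and 20.2 CPM in those spermatocytes.

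Of 45 recombination genes, 8 (17.8%) rose and 24 (53.3%) fell, where 41.1% and 36.4% of all genes did, with a median of -0.24. Spata22, a partner of the recombination factor Meiob, measured 1.23 and 1.73 CPM in round spermatids, against 16.2 and 14.7 CPM in spermatocytes labelled wild type. The checkpoint gene Topbp1 measured 14.2 and 15.4 CPM, against 70.8 and 63.1 CPM in those spermatocytes, and the crossover endonuclease subunit gene Mlh3 13.5 and 14.0 CPM, against 57.8 and 49.5 CPM in those spermatocytes. Tex15 and Brca1 rose, Tex15 with 171 and 188 CPM, against 85.5 and 65.3 CPM in those spermatocytes.

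Of 56 genes of the meiotic divisions, 17 (30.4%) rose and 28 (50%) fell, where 41.1% and 36.4% of all genes did. At the 2-fold level none rose and 12 (21.4%) fell, where 20% and 18.1% of all genes did. Cdk2, a cyclin-dependent kinase that localizes to meiotic chromosomes, measured 14.9 and 15.1 CPM in round spermatids, against 115 and 112 CPM in spermatocytes labelled wild type, a difference of -2.92 (SE 0.08, adjusted p = 4e-23). Cks2, its small partner protein, measured 9.74 and 9.59 CPM, against 72.8 and 75.4 CPM in those spermatocytes, and the cell cycle inhibitor gene Fbxo43 8.69 and 8.50 CPM, against 46.4 and 45.4 CPM in those spermatocytes. Wee1 and Cdc25a, which oppose each other on Cdk phosphorylation, both rose, by 0.78 and 0.80.

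The piRNA and germ granule genes had the lowest median of the lists of germ cell function, at -0.78. Of 29, 8 (27.6%) rose and 18 (62.1%) fell, where 41.1% and 36.4% of all genes did. The falls that passed 2-fold numbered 12 (41.4%), where 18.1% of all genes fell by that much. Besides Piwil1 and Tdrd5, Tdrd1 fell to 40.5 and 41.6 CPM, against 275 and 250 CPM in spermatocytes labelled wild type, and Pld6, a mitochondrial factor of piRNA production, to 24.6 and 25.4 CPM, against 112 and 113 CPM in those spermatocytes. Gtsf1, a partner of PIWI proteins, rose, with 409 and 401 CPM, against 235 and 251 CPM in those spermatocytes. Of 57 RNA-binding and translation control genes, 24 (42.1%) rose and 28 (49.1%) fell, so that the share of rises was near the 41.1% of all genes. The meiotic splicing regulator Ptbp2 measured 43.7 and 45.8 CPM in round spermatids, against 146 and 132 CPM in those spermatocytes, and Paip1, a poly(A)-binding protein partner, 7.99 and 8.38 CPM, against 54.9 and 52.2 CPM in those spermatocytes. Samd4 (Smaug) measured 562 and 537 CPM, against 188 and 190 CPM in those spermatocytes, and the cytoplasmic polyadenylation gene Cpeb2 688 and 716 CPM, against 367 and 343 CPM in spermatocytes labelled wild type.

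Of 40 proteasome genes, 12 (30%) rose and 21 (52.5%) fell, where 41.1% and 36.4% of all genes did, with a median of -0.15. The germ cell subunit gene Psma8 fell to 27.2 and 28.7 CPM in round spermatids, against 144 and 139 CPM in spermatocytes labelled wild type. Of 29 ubiquitin ligase and related genes of spermatids, 22 (75.9%) rose and 6 (20.7%) fell, with a median of 0.83. Klhl10, a Cul3 adaptor, measured 658 and 665 CPM, against 228 and 226 CPM in those spermatocytes. Cul4a fell, with 55.6 and 59.2 CPM, against 150 and 141 CPM in those spermatocytes. Chaperone genes rose in 24 of 39 cases (61.5%) and fell in 7 (17.9%), where 41.1% and 36.4% of all genes did. The chaperone median of 0.21 changed sign to -0.12 with total counts alone. Hspa1l, the spermatid form of Hsp70, measured 544 and 534 CPM, against 162 and 174 CPM in those spermatocytes, while the constitutive form Hspa8 measured 62.4 and 64.6 CPM, against 125 and 130 CPM in spermatocytes labelled wild type.

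The sex chromosomes stood apart from the autosomes. X-linked genes took 0.800% and 0.818% of all counts in round spermatids, against 0.479% and 0.465% in spermatocytes labelled wild type, and Y-linked genes took 0.0198% and 0.0203%, against 0.0106% in both. Of 623 X-linked genes tested, 350 (56.2%) rose and 142 (22.8%) fell, where 41.1% and 36.4% of all genes did, with a median of 0.83. The medians of the 19 autosomes lay between -0.06 and 0.16. The X median exceeded that of all genes by 0.78 under each of the 4 scalings tried. A change of scaling moves all genes by nearly the same amount, so the 4 scalings could hardly differ here. The excess was 0.74 against the spermatocytes labelled knockout and 0.45 without a filter on low counts. Of 25 Y-linked genes, 22 (88%) rose and none had a negative difference, with a median of 1.34.

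X-linked levels stayed below autosomal levels, and their median was lower in round spermatids, as was the autosomal median. Among protein-coding genes, the X-linked median per kilobase of exon was 0.234 and 0.236 CPM per kilobase in round spermatids, against 0.311 and 0.288 in spermatocytes labelled wild type. The autosomal median was 0.682 and 0.684 CPM per kilobase in round spermatids, against 0.891 and 0.882 in those spermatocytes. The third quartile per kilobase of exon was 2.23 CPM per kilobase in both round spermatid libraries for X-linked genes, against 1.55 and 1.49 in spermatocytes labelled wild type, where autosomal genes stood at 7.64 and 7.63 in round spermatids and 7.89 and 7.83 in those spermatocytes. The share of X-linked genes with at least 1 CPM per kilobase was 32.7% and 32.8% in round spermatids, against 30.6% and 30.9% in spermatocytes labelled wild type. Rises and falls on the X differed in abundance. A mean log2 CPM of at least 3 was reached by 159 of the 350 X-linked genes that rose and by 7 of the 142 that fell. On the autosomes, 53.8% of the genes that fell reached it.

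With provisional symbols passed over, the largest X-linked rises under the abundance rule were Ppp1r2-ps7 (1.78), the ferritin-like gene Fthl17a (1.71), the histone gene H2al3 (1.69), the tetraspanin gene Tspan6 (1.66) and Ctag2 (1.62). Tspan6 measured 53.3 and 60.3 CPM in round spermatids, against 16.9 and 18.9 CPM in spermatocytes labelled wild type. The largest X-linked falls were Lonrf3 (-1.87), the deacetylase gene Hdac6 (-1.78), the RNA helicase gene Ddx3x (-0.90), the chromatin protein gene Rbbp7 (-0.81) and Htatsf1 (-0.45). Hdac6 measured 6.83 and 7.28 CPM, against 24.9 and 23.5 CPM in those spermatocytes. Of the Sertoli markers, 4 are X-linked as well, so that the X-linked falls and the Sertoli list share members. On the Y, Usp9y measured 14.3 and 15.1 CPM in round spermatids, against 5.83 and 4.64 CPM in those spermatocytes, Zfy2 14.8 and 15.4 CPM, against 5.88 and 5.28 CPM in those spermatocytes, and Eif2s3y 74.8 and 79.5 CPM, against 29.6 and 29.0 CPM in those spermatocytes. Of 33 multicopy and late genes of both sex chromosomes, 29 (87.9%) rose and 2 (6.06%) fell, where 41.1% and 36.4% of all genes did, with a median of 1.40. Reads of such copies can be shared between near-identical genes, so their single values are uncertain.

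**Figure D5:**
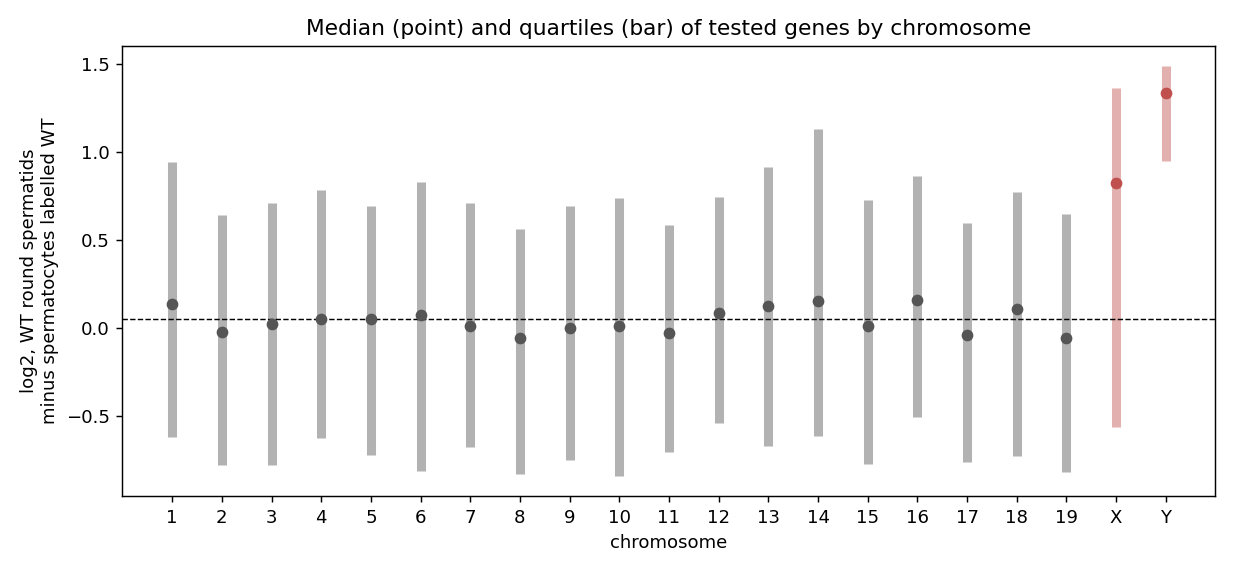
Median (point) and middle quartiles (bar) of the log2 difference, round spermatids minus spermatocytes labelled WT, over the tested genes of each chromosome, with a dashed line at the median of all genes, 0.05. The X at 0.83 and the Y at 1.34 lie above all 19 autosomes, whose medians run between -0.06 and 0.16.

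Several X-linked housekeeping genes have an autosomal copy that is used in the testis. The list read here held 18 pairs of an X-linked gene and an autosomal relative, not all of this kind. In 15 of the 18 pairs, the autosomal gene had the higher level per kilobase of exon in both cell types. The ratio was at least 10-fold in 13 pairs in round spermatids and in 13 pairs in spermatocytes labelled wild type. Pgk2, the testis phosphoglycerate kinase gene, stood at 598 CPM per kilobase in round spermatids and 309 in those spermatocytes, while Pgk1 on the X stood at 2.72 and 1.99. Nkapl stood at 61.0 CPM per kilobase in round spermatids and 60.2 in spermatocytes labelled wild type, while Nkap on the X stood at 0.107 and 0.117. In the exceptions Cstf2t, Zfa-ps and Taf7, the X-linked partners Cstf2, Zfx and Taf7l had the higher level per kilobase in round spermatids.

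Neither set moved as a whole. Of the 18 X-linked members, 9 (50%) rose and 4 (22.2%) fell, where 41.1% and 36.4% of all genes did. The rises were Pgk1 (0.45), Utp14a (1.16), Cetn2 (0.75), Rbmx (0.93), Cstf2 (1.24), Prps1 (0.85), Gk (1.59), Zfx (0.63) and Taf7l (0.60), and the falls were Rpl10 (-0.48), Ddx3x (-0.90), Slc25a5 (-0.93) and Rps4x (-0.60). Cstf2, a cleavage and polyadenylation factor, measured 97.7 and 116 CPM in round spermatids, against 45.7 and 44.9 CPM in spermatocytes labelled wild type. Pdha1 (-0.72), Nkap (-0.12), Timm8a1 (-0.66), Rpl39 (-0.25) and Rpl36a (-0.32) did not pass the test.

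Of the 18 autosomal members, 10 (55.6%) rose and 6 (33.3%) fell, where 41.1% and 36.4% of all genes did. These counts became 6 and 10 against the spermatocytes labelled knockout and 3 and 10 with total counts alone. Pgk2 rose by 0.96 (SE 0.04) and the glycerol kinase gene Gk2 by 0.57, with 1217 and 1254 CPM in round spermatids, against 837 and 832 CPM in spermatocytes labelled wild type. Utp14b (0.70), Rps4l (0.41) and the helicase gene D1Pas1 (0.36) rose as well, and Rpl39l (0.31), Cetn1 (0.27), Rbmxl2 (0.22), Prps1l1 (0.17) and Rpl10l (0.16) by amounts that changed sign with total counts alone. Zfa-ps (-1.57), Timm8a2 (-1.46), Cstf2t (-1.33), the carrier gene Slc25a31 (-0.92), Taf7 (-0.91) and Pdha2 (-0.14) fell, and Rpl36al (0.07) did not pass. Several members are retrocopies, and the way shared reads were assigned to them is not given in the sources used here.

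Gene families were read by their symbols. Of 30 Spata genes, 25 (83.3%) rose and 4 (13.3%) fell, where 41.1% and 36.4% of all genes did. By 2-fold or more, 19 (63.3%) rose, where 20% of all genes did, and the median was 1.32. Spata18, a mitochondrial quality factor, measured 357 and 341 CPM in round spermatids, against 114 and 111 CPM in spermatocytes labelled wild type. Of 37 Tex genes, 27 (73.0%) rose and 5 (13.5%) fell, with Tex101 and Tex19.2 among the falls. Tex19.2 measured 2.33 and 3.53 CPM, against 24.8 and 26.1 CPM in those spermatocytes. All 5 Iqcf genes rose, between 1.19 and 1.51. Adam genes rose in 21 of 31 cases (67.7%) and fell in 6 (19.4%). Adam1a rose, with 288 and 286 CPM, against 109 and 105 CPM in those spermatocytes. The widely expressed Adam10 measured 2.74 and 3.53 CPM, against 7.37 and 6.60 CPM in those spermatocytes. Prss protease genes rose in 11 of 23 cases (47.8%) and fell in 8 (34.8%), near the shares over all genes, and their median of 0.28 changed sign to -0.05 with total counts alone. Prss44 and Prss43, a neighbouring pair on chromosome 9, fell, with Prss44 at 21.9 and 22.8 CPM, against 52.7 and 52.9 CPM in spermatocytes labelled wild type. Prss46, on the same chromosome, rose, with 240 and 228 CPM, against 88.2 and 96.3 CPM in those spermatocytes.

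The genes that rose were shorter and more often non-coding. The median exonic length was 2958 bases for 2-fold rises, 4232 for 2-fold falls and 4062 for all genes tested. Long non-coding RNA genes were 15.7% of the 2-fold rises, 4.58% of the 2-fold falls and 7.32% of all genes with a biotype. Of 1154 such genes tested, 642 (55.6%) rose and 229 (19.8%) fell, where 41.1% and 36.4% of all genes did, with a median of 0.65. Among provisional Gm and Rik symbols, 990 of 1648 (60.1%) rose and 321 (19.5%) fell, with a median of 0.81.

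The step was also set against the same step in libraries labelled knockout, with the difference of both log2 differences as the test. Of 15805 genes, 1426 (9.02%) had a higher and 2599 (16.4%) a lower value in the libraries labelled knockout. This split depends on the scaling, with 3209 higher and 1125 lower under upper-quartile factors and 3722 and 997 with total counts alone. Without the first round spermatid library labelled wild type, 1463 genes were lower, and without the second 1614. Because Nkapl goes against the spermatocyte labels, a difference of the steps cannot be told apart from a difference in what those libraries hold.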

How the data were processed

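Total RNA of testis cells labelled by type was sequenced with a strand-specific kit, per the labels' protocols. The deposited files hold whole-number counts of reads per gene. The submitters' processing notes name HISAT2 2.1.0, HTSeq, DESeq2 and mm10. Which annotation was counted, and with which strand option, is not stated there. Rows that name no gene held 18.8% to 20.0% of the counts in the 4 libraries labelled wild type and were left out.

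From 24682 genes, 15805 passed edgeR's filterByExpr over the 8 libraries with a cell type label, whose totals ran from 18155299 to 19569272. They were fitted together with edgeR 4.0.16 (trimmed mean of M-values, quasi-likelihood F test, Benjamini-Hochberg adjustment) in R 4.3.3, and the code was checked on simulated data. The alternatives were DESeq2 1.42.0, other scalings, no filter, fewer libraries, a replicate block and the spermatocytes labelled knockout as the base. Replicate numbers did not pair the samples.

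The members and lists were chosen with earlier results of these data known. The genes named were Nkapl, the 10 largest rises and falls without overlap at a mean log2 CPM of 3 or more (provisional Gm and Rik symbols passed over), up to 4 called members per list by p with up to 2 against its majority, the X-linked and autosomal pairs, leading X- and Y-linked genes, the most abundant genes and those with the smallest p for the difference of the steps. Prm3, Gapdh, Hk2 and the other genes outside this rule were chosen after their values were seen. Exonic lengths came from GENCODE vM21. Gene positions, chromosomes and biotypes came from RefSeq, and promoters from RefSeq (GRCm38.p6). The series design speaks of triplicates, whereas each cell type group has 2 libraries.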

Additional observations from a re-analysis of the deposited data

Results flagged for a closer look

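The step from spermatocytes to round spermatids differed between libraries labelled knockout and libraries labelled wild type, as tested by the difference of both log2 differences in edgeR's quasi-likelihood fit. It was higher in the libraries labelled knockout for 1426 genes and lower for 2599. The genes with the smallest p were Nkapl itself (-2.40), the COPII coat gene Sec23a (-2.92), the endoplasmic reticulum stress gene Herpud1 (-1.99), the nucleolar gene Rbm28 (-1.81) and Rcc1 (-1.24), the exchange factor of the GTPase Ran. Rcc1 measured 66.3 and 62.9 CPM in round spermatids labelled knockout, against 104 and 106 CPM in spermatocytes labelled knockout. These values rest on spermatocyte libraries whose Nkapl level goes against their labels.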

How the results depend on the processing

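With total counts alone, the median of all genes moved by -0.33 and the 2-fold rises numbered 1899. The rises of 4-fold or more numbered 49 with total counts alone, 182 with no filter, 58 in the 4 libraries labelled wild type alone and 1671 against the spermatocytes labelled knockout, and 126 to 227 with 1 library left out. The falls of 4-fold or more numbered 1289 with total counts alone and 1336 against the spermatocytes labelled knockout. For the difference of the steps, genes higher in the libraries labelled knockout numbered 3209 with upper-quartile factors and 3722 with total counts alone. Those lower numbered 1228 with DESeq2, 1125 with upper-quartile factors, 997 with total counts alone, 1681 with no filter and 1463 to 2977 with 1 library left out. Rises were 47.2% of calls with upper-quartile factors. With total counts alone, signs changed for Nkapl (-0.31), Ldhc (-0.18), Cetn1 (-0.062), Prps1l1 (-0.16), Rbmxl2 (-0.12), Rpl10l (-0.17), Rpl36al (-0.27) and Rpl39l (-0.027). Against the spermatocytes labelled knockout they changed for Nkapl (-0.49), Cetn1 (-0.17), Prps1l1 (-0.049), Rbmxl2 (-0.14), Rpl10l (-0.051) Rpl36al (-0.21) and Alas2 (0.16). The cause was not tested. Replicate numbers did not pair the samples, whose deviations correlated between -0.02 and 0.04, and a replicate block gave 6483 rises and 5758 falls. Genes at a few counts per library carry the widest errors.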

Other observations

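Of 345 Zfp genes, which encode zinc finger proteins, 97 (28.1%) rose and 168 (48.7%) fell in round spermatids, with a median of -0.37. Of all genes, 41.1% rose and 36.4% fell. Zfp389 measured 0.934 and 0.636 CPM in round spermatids, against 19.7 and 19.3 CPM in spermatocytes labelled wild type. Zfp346 fell by 2.93 on the log2 scale, while Zfp474 rose by 1.44. Of 77 cytosolic ribosomal protein genes, 10 (13.0%) rose and 34 (44.2%) fell, none of the rises by 2-fold, with a median of -0.10. The ribosomal falls became 63 against the spermatocytes labelled knockout. Of 86 nuclear genes of the respiratory chain, 16 (18.6%) rose and 42 (48.8%) fell, with a median of -0.14, and Ndufc2 of complex I fell furthest, by 1.67. Of 69 replication-dependent histone genes, 53 stayed under 1 CPM in all 4 libraries labelled wild type. Of the 20 that could be tested, 7 (35%) rose and 6 (30%) fell, near the shares over all genes. At the 2-fold level, 7 (35%) rose and 4 (20%) fell, where 20% and 18.1% of all genes did.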
